A study of Oryza coarctata with 5 samples.

Results

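Porteresia (Oryza coarctata) is a wild relative of rice that lives in tidal, saline mud, and the transcripts described here are 100 that stood above the water control in plants kept in 700 mM NaCl while they stayed near it in 450 mM NaCl and in submergence in water. They were chosen from expression values of 5 RNA-sequencing libraries, 1 for each treatment. A transcript was eligible if its RPKM was above 0 in all 5 libraries and at least 5 at 700 mM NaCl, and if its log2 ratio to the control lay between −0.5 and 0.5 both at 450 mM NaCl and under water without salt. RPKM counts reads for each kilobase of a transcript relative to all reads of its library, and 0.5 was added to both values before each log2 ratio. Of 152367 assembled transcripts 11323 were eligible, and the 100 with the highest ratio of 700 mM NaCl to control (0.883% of the eligible ones) are the members.

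The plants were mature and came from natural conditions, and each group was 1 library. The control stood in water, the salt groups in 450 mM or 700 mM sodium chloride solution, the submerged group under water, and the combined group under a 450 mM sodium chloride solution. No genotype, transgene, tissue, treatment time or number of plants per library is given in the sources used here. Without replicates, how much plants given 1 treatment vary is not known, so no test between treatments was run, no p-value is given, and a difference is described by its size and by the error of counting reads. Fewer cells of a type and less RNA per cell cannot be told apart in such bulk samples.

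In plants, excess sodium chloride acts first as an osmotic stress, which closes stomata and slows water uptake, and later as an ion stress, when sodium and chloride build up in the leaves. Halophytes such as Porteresia hold cytosolic sodium low by exclusion at the root, by transport into the vacuole and by secretion, which in this species goes through hairs on the leaf surface. Submergence is a different stress, in which slow gas diffusion limits oxygen and carbon dioxide. The transcripts carry assembly numbers without gene names, so the lists for ion transport, osmoprotection, abscisic acid signalling, redox enzymes and heat shock could not be applied, and no member is given a function or a sequence.

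The read totals solved from the steps of the RPKM values were 56638113 reads in the control, 59818916 at 450 mM NaCl and 58431827 at 700 mM NaCl. Under water they were 78997383 reads without salt and 74867541 with it. Libraries also differed in the balance of all transcripts, and after median-of-ratios scaling the log2 factor was −0.16 for 450 mM NaCl and −0.10 for 700 mM NaCl relative to the control. The eligible transcripts as a whole had a median log2 ratio of −0.12 at 700 mM NaCl, so the members stood a little further from the other transcripts than their ratio to the control gives.

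The difference at 700 mM NaCl chose the members and is given as a description. The median RPKM of the members was 3.35 in the control, 3.71 at 450 mM NaCl, 8.11 at 700 mM NaCl, 3.44 when submerged without salt and 3.65 when submerged with it. The library at 700 mM NaCl held the highest of the 5 values for 99 of the 100 members, against 16.8% of the eligible transcripts. The choice of members fixed its place above the control, 450 mM NaCl and submergence in water, so nothing is read from this count. The log2 ratio to control at 700 mM NaCl had a median of 1.12 and ran from 0.88 to 2.48. At 2-fold or more (log2 ratio of at least 1) 73 members were higher, and these were all the eligible transcripts past that limit, 0.645% of 11323. The other 27 members lay under 2-fold on this scale, which understates differences of low transcripts. With nothing added to RPKM, 91 members were at 2-fold or more (0.804% of the eligible transcripts) and 9 were under it.

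**Figure D1:**
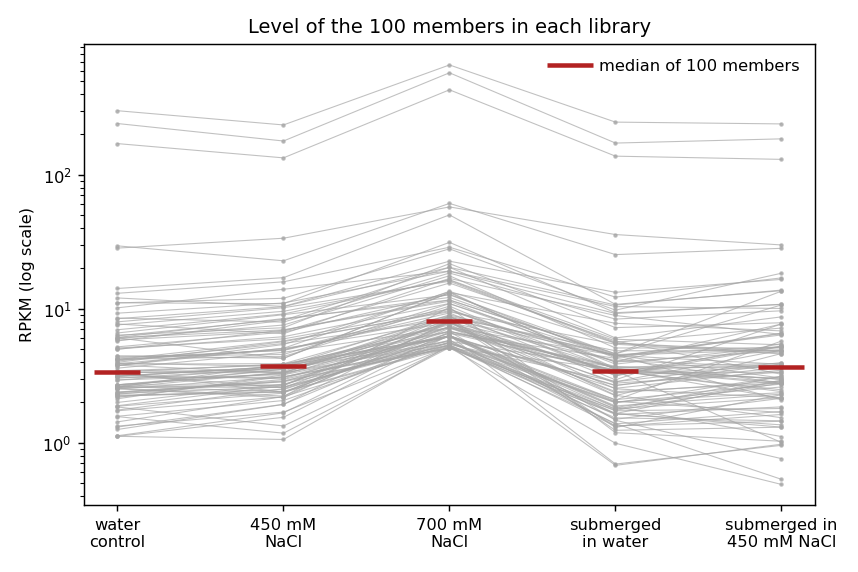
RPKM (log scale) of each of the 100 members in the 5 libraries, with 1 grey line per member and a red bar at the median in each library; the lines join the libraries of 1 member and imply no order. The median is 8.11 at 700 mM NaCl and between 3.35 and 3.71 in the other libraries, and 3 members lie far above the rest.

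Most differences were moderate. Only 4 members reached 4-fold on the scale with 0.5 added, and their control values were between 1.11 and 1.43 RPKM. A further 69 lay between 2-fold and 4-fold, with a median control value of 3.75 RPKM and a median of 8.79 at 700 mM NaCl. The 27 members under 2-fold with 0.5 added went from a median of 3.36 RPKM in the control to 6.78 at 700 mM NaCl. With nothing added to RPKM, more members were past 4-fold. Among them were Pc_TC040947 at 4.82-fold and Pc_TC121909 at 4.31-fold, with 1.31 and 1.89 RPKM in the control. The place of the limit has no break on either side. Pc_TC137829 and Pc_TC036574, ranks 99 and 100, had log2 ratios of 0.88 and 0.88, and Pc_TC130414 at rank 98 also had 0.88. Just outside, Pc_TC100845, Pc_TC132268 and Pc_TC022838 all had 0.87.

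The minimum of 5 RPKM at 700 mM NaCl, together with the limit on the ratio, bound the base level to membership. Any eligible transcript with a control value under 2.497 RPKM had to be a member, and 25 members were such transcripts. The members' control values were accordingly low. Their quartiles were 2.48 and 5.87 RPKM, against 8.45 and 26.5 for all eligible transcripts, and 15 were under 2 RPKM, 74 between 2 and 10, and 11 at 10 or more. Neither the low base level nor its tie to the size of the difference is a finding about these transcripts.

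Members were short and rested on few reads. Their median length, solved from the RPKM steps, was 408 nt (range 201 to 5353), against 1170 nt for the eligible transcripts. Under 300 nt were 36 members, compared with 14.4% of the eligible transcripts, and 22 were 1000 nt or longer, compared with 55.4%. The median number of reads per member was 73 in the control, 91.5 at 450 mM NaCl, 199.5 at 700 mM NaCl, 97.5 when submerged without salt and 112.5 when submerged with it, where the eligible transcripts had medians between 853 and 1284. In the control 58 members had under 100 reads and 9 had under 30. Length and read number move together with membership, and their part in it was not tested.

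Counting error alone can be set beside each difference. For 100 of 100 members the exact 95% interval of the ratio of 700 mM NaCl to control lay above 1, as it did for 16.9% of the eligible transcripts, and the same held for all members against 450 mM NaCl (17.0% of the eligible transcripts) and against submergence in water (30.4%). These intervals come from the values that chose the members and cover counting error only. For 37 members the interval against the control lay wholly above 2, as for 0.327% of the eligible transcripts. The ratio of RPKM without an added constant had a median of 2.37 and ran from 1.88 to 7.19.

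The 10 members with the largest log2 ratio include 8 with under 2 RPKM in the control. Pc_TC144262 (235 nt) stood at 1.43 RPKM in the control (19 reads), 2.21 at 450 mM NaCl, 10.3 at 700 mM NaCl (141 reads), 1.19 when submerged without salt and 1.02 when submerged with it. It was 7.19-fold higher at 700 mM NaCl than in the control (95% interval 4.44 to 12.3), and the combined treatment gave its lowest value. Pc_TC120759 (451 nt) stood at 1.25, 1.93, 8.08, 1.23 and 1.30 RPKM in the same order of libraries, 6.45-fold higher at 700 mM NaCl (4.44 to 9.67). Pc_TC125527 (361 nt) had 1.12, 1.67, 6.73, 1.33 and 1.44 RPKM and was 5.98-fold higher (3.83 to 9.75). In submergence in salt, where the rule asked only for a value above 0, both lay within a log2 ratio of 0.5 of the control.

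Pc_TC123073 (238 nt) had the lowest control value of all members, with 1.11 RPKM in the control from 15 reads, 1.55 at 450 mM NaCl, 6.33 at 700 mM NaCl, 0.69 when submerged without salt and 0.95 when submerged with it. Pc_TC135777 (206 nt) was as low, with 1.11, 1.05, 5.32, 0.68 and 0.97 RPKM, and its 4.77-fold difference had an interval from 2.60 to 9.44. In this pair every value outside 700 mM NaCl rests on at most 22 reads. Pc_TC043808 had 1.87, 2.34, 8.53, 1.30 and 2.28 RPKM, Pc_TC040947 had 1.31, 1.93, 6.30, 1.85 and 1.11, and Pc_TC121909 had 1.89, 2.66, 8.13, 1.47 and 0.76. The last of these is the one of the 10 with the lowest ratio in submergence in salt, at −0.92.

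Of these 10, Pc_TC033205 and Pc_TC102859 had higher base levels and tighter intervals. Pc_TC033205 (408 nt) stood at 14.2 RPKM in the control (327 reads), 17.0 at 450 mM NaCl, 50.1 at 700 mM NaCl (1195 reads), 10.8 when submerged without salt and 13.6 when submerged with it. Its level was 3.54-fold higher at 700 mM NaCl (3.13 to 4.02), and in the combined treatment its ratio to control was 0.96 (0.83 to 1.12). Pc_TC102859 (243 nt) had 5.74, 8.19, 20.4, 6.04 and 8.68 RPKM, and was 3.55-fold higher at 700 mM NaCl (2.76 to 4.61). Its value in submergence in salt was 1.51-fold that of the control (1.15 to 2.01), so among the 10 it was the one furthest above the control there.

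The 3 most abundant members stood far above the others. Pc_TC000919 (5353 nt) had 300.7 RPKM in the control (91171 reads), 235 at 450 mM NaCl, 660 at 700 mM NaCl (206506 reads), 247 when submerged without salt and 240 when submerged with it, and ranked 42 among all transcripts of the library at 700 mM NaCl. Pc_TC069488 (274 nt) had 241, 179, 577, 172 and 185 RPKM, and Pc_TC036386 (350 nt) had 171, 134, 431, 138 and 130. The highest control value among the other 97 members was 29.5 RPKM. At 700 mM NaCl the 3 transcripts together held 60.1% of the members' summed RPKM.

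These 3 had nearly the same profile, high at 700 mM NaCl and below the control in each of the other treated libraries. Their log2 ratios to control lay between 1.13 and 1.33 at 700 mM NaCl, between −0.43 and −0.35 at 450 mM NaCl, between −0.48 and −0.28 when submerged without salt and between −0.39 and −0.33 when submerged with it. The rule bounded the ratios at 450 mM NaCl and in submergence in water and chose for a high ratio at 700 mM NaCl. Part of the likeness in those ratios was therefore set by the choice of members. The ratio in submergence in salt was not used in choosing them beyond a value above 0. All of these ratios share the control library as their base. Against 450 mM NaCl, submergence in salt had log2 ratios of 0.03 for Pc_TC000919, 0.05 for Pc_TC069488 and −0.04 for Pc_TC036386. Against submergence in water they were −0.04, 0.10 and −0.08 in the same order. For Pc_TC000919 the ratio of the combined treatment to control was 0.797 (0.790 to 0.804), for Pc_TC069488 0.768 (0.734 to 0.804) and for Pc_TC036386 0.763 (0.727 to 0.800). An assembly can split 1 RNA into several transcripts, and whether these are separate genes cannot be told from the files.

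**Figure D2:**
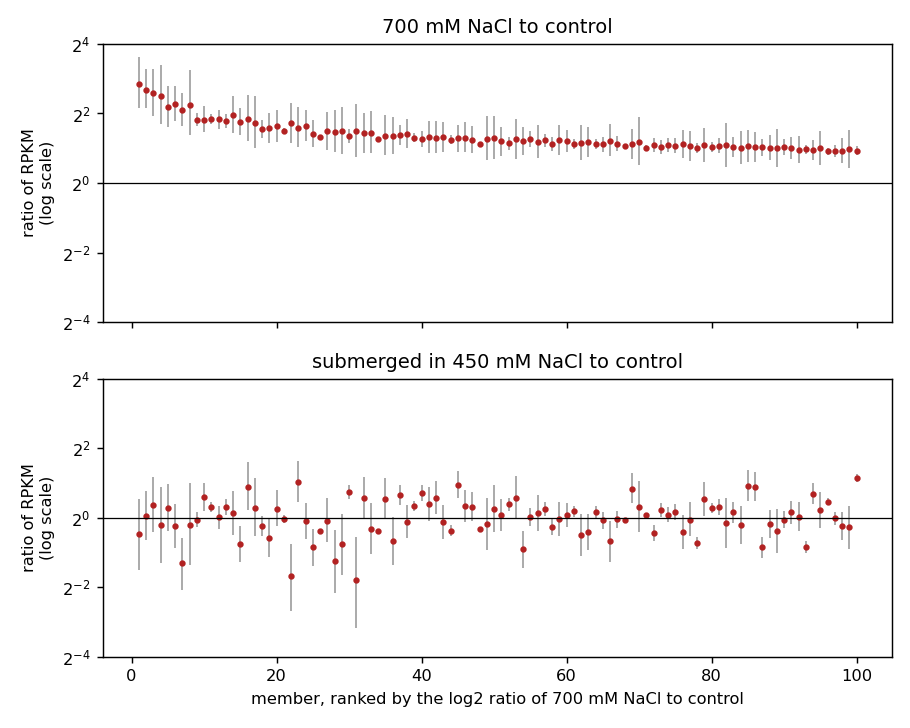
Ratio of RPKM (log scale) of 700 mM NaCl to control (upper panel) and of submergence in 450 mM NaCl to control (lower panel) for the 100 members, ranked by the log2 ratio of 700 mM NaCl to control; points are ratios, grey bars exact 95% intervals for counting error. All 100 intervals lie above 1 in the upper panel; in the lower panel 55 hold 1, 26 lie above it and 19 below it.

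The value of the library submerged in 450 mM NaCl entered the choice only by having to be above 0, and allowing 0 gave the same 100 members and 11323 eligible transcripts. In this library the members were on both sides of the control. Their median log2 ratio to control was 0.01, with quartiles of −0.24 and 0.27 and a range from −1.18 to 1.09, beside a median of 0.04 for all eligible transcripts. Above the control were 51 members, and 56.3% of the eligible transcripts. At 2-fold or more 1 member was higher, where 0.274% of the eligible transcripts were, and 2 were lower, where 0.168% were. The call limit of 2-fold over all 72288 transcripts with RPKM of at least 1 in either library gave 3.65% higher and 6.92% lower. The eligible transcripts are held near the control in the other libraries by the rule, which makes them the closer background.

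The members spread more widely around the control in this library than the eligible transcripts did. Within a log2 ratio of 0.5 of the control were 73 members, compared with 93.2% of the eligible transcripts. Above 0.5 were 13 members (background 4.07%) and below −0.5 were 14 (background 2.73%). The standard deviation over members was 0.45, against 0.27. Read numbers moved with this difference. Among transcripts with under 100 reads in the control, 32.8% of 58 members and 14.7% of 448 other eligible transcripts lay outside 0.5. With 100 or more but under 1000 reads the values were 22.9% of 35 members and 8.52% of 5374 others, and with 1000 or more 0 of 7 members and 4.05% of 5401 others. The standard deviations of members and others were 0.50 and 0.37 under 100 reads, 0.40 and 0.29 in the middle class, and 0.30 and 0.23 at 1000 or more. Read numbers within a class were not matched, all 9 eligible transcripts with under 30 reads in the control were members, and the part of read number in the wider spread was not tested.

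**Figure D3:**
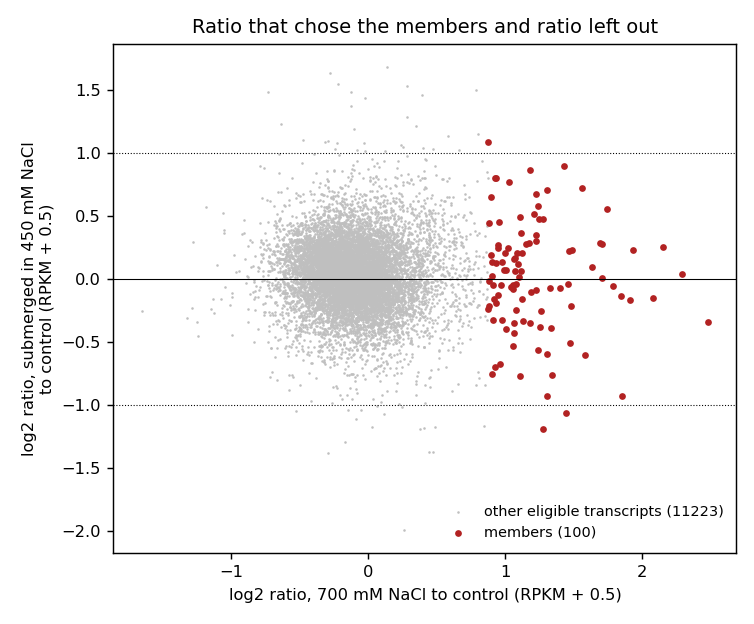
Log2 ratio to control (RPKM + 0.5) at 700 mM NaCl (x axis) and in submergence in 450 mM NaCl (y axis) for the 100 members (red) and 11223 other eligible transcripts (grey); dotted lines mark 2-fold. Members are cut off at 0.88 on the x axis by the rule and have a median of 0.01 on the y axis.

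With reads in place of a fold limit, 55 members had an interval of the ratio of submergence in salt to control that held 1, 26 had one above 1 and 19 one below 1. Of the eligible transcripts, which have more reads, 34.9% lay above and 23.8% below. At 700 mM NaCl 96 members were above submergence in salt beyond counting error, as were 22.8% of the eligible transcripts, and nothing is read from this count, since the members were chosen for a high value at 700 mM NaCl. Of the other 4, Pc_TC036574 was higher in submergence in salt, and for Pc_TC101377, Pc_TC090397 and Pc_TC082855 the interval held 1 (Pc_TC082855 is named after its values were seen).

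Pc_TC036574 (2328 nt) was the single member at 2-fold or more in submergence in salt with 0.5 added. It stood at 6.09 RPKM in the control (803 reads), 8.44 at 450 mM NaCl, 11.6 at 700 mM NaCl (1577 reads), 4.61 when submerged without salt and 13.5 when submerged with it (2355 reads). Its ratio of submergence in salt to control was 2.22 (2.05 to 2.41), above its ratio at 700 mM NaCl of 1.90 (1.75 to 2.08). The name "raised only at 700 mM" therefore does not hold for it, and it was also the last member by rank. It was not the only exception. In submergence in salt 13 members, Pc_TC036574 among them, lay above a log2 ratio of 0.5 (background 4.07%). The name covers only the libraries that the rule used.

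Another 4 members made up the upper end in submergence in salt. Pc_TC112518 had 2.57 RPKM in the control, 3.34 at 450 mM NaCl, 7.77 at 700 mM NaCl, 3.32 when submerged without salt and 5.23 when submerged with it, 2.03-fold the control (1.37 to 3.09). With 0.5 added its log2 ratio was 0.90, under the 2-fold limit. Pc_TC078683 had 3.97, 5.67, 9.65, 4.01 and 7.68 RPKM in the same order. Pc_TC101377 had 3.07, 3.07, 6.29, 2.08 and 5.73, and Pc_TC090397 had 2.60, 2.58, 5.42, 2.84 and 4.90. In the last pair 450 mM NaCl differed from the control by a log2 ratio of 0.0002 and −0.01, and the level in salt under water stood 1.86-fold (1.41 to 2.49) and 1.89-fold (1.39 to 2.58) above it.

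For the 5 members lowest in submergence in salt the read numbers were small. Members with more reads also lay below −0.5. Pc_TC011223, named after its values were seen, had 648 reads in the control and 475 in submergence in salt. Its ratio to control was 0.55 (0.49 to 0.63). Pc_TC122797 (201 nt) had 1.84 RPKM in the control (21 reads), 1.33 at 450 mM NaCl, 5.19 at 700 mM NaCl, 1.39 when submerged without salt and 0.53 when submerged with it (8 reads), a ratio to control of 0.29 (0.11 to 0.68). Pc_TC079842 had 1.56, 1.18, 5.13, 0.99 and 0.49 RPKM, with 14 reads in submergence in salt and a ratio of 0.31 (0.15 to 0.60). These 2 are the members at 2-fold or more below the control with 0.5 added. With nothing added there were 4 (0.291% of the eligible transcripts), the others being Pc_TC121909 at 0.40 and Pc_TC042801 at 0.43 of the control. Pc_TC042801 had 2.35, 2.86, 6.56, 3.43 and 1.002 RPKM, Pc_TC121909 is given above, and Pc_TC137127 had 3.91, 3.70, 8.99, 4.50 and 2.09.

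The control library was used to choose the members, so the combined treatment was also set against the other 2 libraries near it. Against 450 mM NaCl the median log2 ratio of submergence in salt was −0.11 (0.07 for eligible transcripts), with 0 members at 2-fold higher (background 0.15%) and 2 lower (background 0.23%). Against submergence in water it was 0.16 (0.03 for eligible transcripts), with 4 members higher (background 0.415%) and 1 lower (background 0.106%). Beside the range of control, 450 mM NaCl and submergence in water, the value in submergence in salt lay between the lowest and the highest for 47 members, above all 3 for 28 and below all 3 for 25. For eligible transcripts these shares were 58.1%, 27.2% and 14.7%.

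Within the window that the rule allowed, the members leaned to one side. At 450 mM NaCl 75 members were above the control, with a median log2 ratio of 0.23, where the eligible transcripts had −0.03. In submergence in water 36 were above it, with a median of −0.19, where the eligible transcripts had −0.003. Submergence in water below control and 450 mM NaCl above it was the order for 52 members and for 26.5% of the eligible transcripts. These values were bounded by the rule and share the control with it, so they are given as a description only.

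A pair of contrasts with no library in common sets 450 mM NaCl against water, one above the surface and one below it. The median log2 ratios of the members were 0.23 and 0.16. Both were above 0 for 53 members and for 32.4% of the eligible transcripts, and both at or below 0 for 14 members and 33.5%. Across members Pearson's r was 0.28 and Spearman's rho 0.26, and across eligible transcripts 0.46 and 0.47. Submergence gave medians of −0.19 without salt and −0.11 with salt, both at or below 0 for 48 members and 32.0% of the eligible transcripts, with r of 0.26 across members and 0.60 across eligible transcripts. Transcripts are not replicates. The first ratio of each pair was bounded by the rule, and the base of the second (submergence in water, or 450 mM NaCl) was held near the control by the same windows, so the choice of members sets part of these counts and nothing is read from them.

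How far the members differ from other transcripts high at 700 mM NaCl was described with the windows dropped. Of 23254 transcripts above 0 in all libraries and with at least 5 RPKM at 700 mM NaCl, 844 were 2-fold or more above the control there. Both windows held 73 of these 844 (8.65%), all of them members, and 11323 of the 23254. The largest class, 345 transcripts, was in the window at 450 mM NaCl and below it in submergence in water, with a median log2 ratio of −1.76 there, and another 285 were above the window at 450 mM NaCl and below it in submergence in water. In all, 648 of the 844 lay below the window in submergence in water, 153 in it and 43 above it. Of the 23254 transcripts 12052 lay in that window. How the rest of the 23254 divided below and above it is not given here, so nothing is read from the sizes of these classes.

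In submergence in salt these classes lay in different places, while at 700 mM NaCl the medians of the 3 classes named next were between 1.18 and 1.26. The 73 members past 2-fold had a median log2 ratio of 1.24 at 700 mM NaCl and 0.01 in submergence in salt. The 75 transcripts above the window at 450 mM NaCl but in the window in submergence in water had 1.26 and 0.57. The 345 transcripts low in submergence in water had 1.18 and −0.89. At 2-fold or more with 0.5 added in submergence in salt were 17 of the 75 (22.7%). None of the 73 was, beside 0.274% of the eligible transcripts. The 75 are not eligible, so that share is no background for them. Over the 72288 transcripts with RPKM of at least 1 in the control or in submergence in salt the share was 3.65%. No share was taken over all transcripts above the window at 450 mM NaCl, and nothing is read from these counts. Every ratio in this comparison has the control library as its base, and the difference between classes was not tested.

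**Figure D4:**
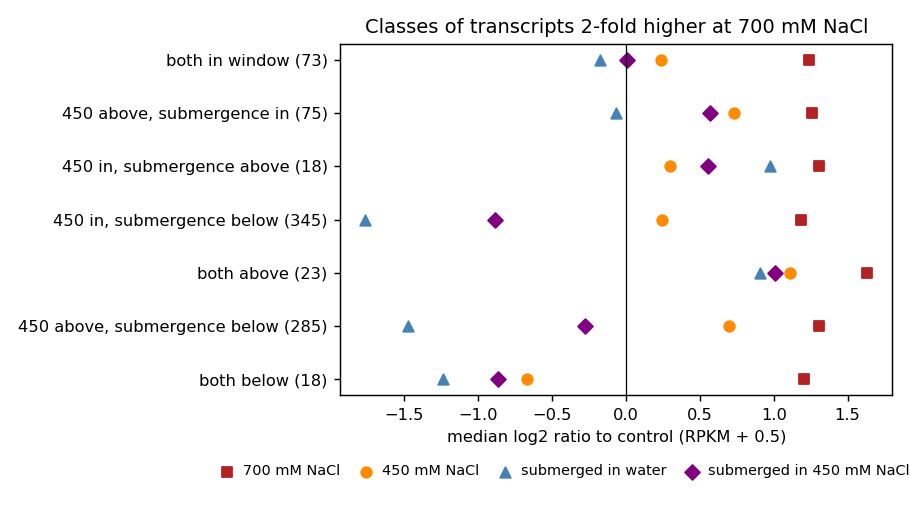
Median log2 ratio to control (RPKM + 0.5) in the 4 treatments for transcripts at 2-fold or more at 700 mM NaCl, by whether 450 mM NaCl and submergence in water lay in, above or below the window of −0.5 to 0.5; numbers of transcripts are in brackets, and classes under 10 transcripts are left out. The class of 73 members has submergence in salt at 0.01, between submergence in water at −0.17 and 450 mM NaCl at 0.24.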

How the data were processed

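The deposited RPKM values were calculated by the authors, per the series text, after filtering with NGS QC Toolkit and mapping to Porteresia transcripts. The mapping program, its version and the treatment of reads with several matches were not given in the sources used here, and near-identical copies in a polyploid can share reads. RPKM was used as deposited. The members, lists and limits were chosen with earlier results of these data known. Read totals, lengths and whole reads were solved from the RPKM steps. The length is the smallest of at least 200 nt at which all values came within 0.01 of a whole read, so true reads may be a multiple. Solved reads summed to between 99.05% and 99.14% of each total. The solution and the choice of members were also run on simulated libraries, and the outcome is not given here. Nothing is read from that run about members with few reads, about small differences or about the windows. Exact 95% (Clopper-Pearson) intervals of ratios cover counting error only. Named transcripts are the 10 with the highest ratio at 700 mM NaCl, 3 on each side of the limit, the 5 highest and 5 lowest in submergence in salt, and the 3 highest at 700 mM NaCl and the 3 highest and lowest in the control. Alternatives numbered 13. Python 3.11.15, numpy 2.4.6, pandas 2.3.3, scipy 1.17.1 and matplotlib 3.10.9 were used.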

Additional observations from a re-analysis of the deposited data

How the results depend on the processing

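The median log2 ratio of the members in submergence in 450 mM NaCl to control (0.01) moved by less than 0.1 under all alternatives but 2, which keep the members and change the reference: −0.11 against 450 mM NaCl and 0.16 against submergence in water. Counts at 2-fold or more were small and moved with most settings. The number higher (1) became 2 with a pseudocount of 0.1, with no minimum at 700 mM NaCl and with a minimum of 10 RPKM, 5 with a window of 1, 3 among 200 members, 4 against submergence in water, and 0 with a pseudocount of 1, median-of-ratios scaling, a window of 0.25, 50 members or 450 mM NaCl as reference. The number lower (2) became 3 with a pseudocount of 0.1 and among 200 members, 4 with median-of-ratios scaling and 5 with a window of 1. It became 1 with a minimum of 10 RPKM, against submergence in water or against the mean of 3 libraries. With a pseudocount of 1, no minimum or a window of 0.25 it was 0. Above the control were 24 of 50 and 106 of 200 members. Among 100 members this number (51) became 65 with a window of 0.25 and 59 with no minimum. Against 450 mM NaCl 37 members were above the reference, and against submergence in water 64. Under the other settings the number lay between 48 and 55. The members' median log2 ratio at 700 mM NaCl (1.12) became 0.66 with a window of 0.25, 0.77 with a minimum of 10 RPKM, 0.87 among 200 members, 1.34 among 50, 1.68 with no minimum and 1.70 with a window of 1. The number of eligible transcripts (11323) became 59820 with no minimum, 6934 with a minimum of 10 RPKM, 5186 with a window of 0.25 and 17762 with a window of 1. Membership itself depended on the settings, except that allowing RPKM 0 changed nothing. Of the 100 members, 73 were also chosen with a pseudocount of 0.1, 75 with 1, 76 with median-of-ratios scaling, 36 with a minimum of 10 RPKM, 16 with no minimum, 22 with a window of 0.25 and 25 with a window of 1. No paired analysis was possible because each treatment has 1 library, and no library could be left out. Depth limits single ratios, since 58 members had under 100 reads in the control.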
